A study of Drosophila melanogaster with 3 samples.

Results

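Genes that encode chromatin proteins with a high mobility group (HMG) box or pioneer factors were examined for peaks of the Sox factor D (Dichaete) in Drosophila melanogaster embryos. They were HmgD, HmgZ, Dsp1, Ssrp, Trl and zld. The 6 genes, of 13945 protein-coding genes, were chosen by gene class, with their peak counts and signal values already known from these data, so those values are given as a description and no test was made on them. All samples were whole embryos aged 0 to 14 hours, of both sexes, from a D-GFP line that stably expresses D with GFP at its C terminus, and D was precipitated with an anti-GFP antibody for ChIP-seq. There was 1 group of 3 biological replicates, with no untreated or mutant group and no time series. Binding in a whole embryo is averaged over all of its tissues and over the 14 hours, and the fusion protein stands in for the native one. Whether the replicates were separate collections is not stated beyond the word biological.

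Peaks were taken from the list of 5047 that met the submitters' threshold on the irreproducible discovery rate (IDR), with dm6 coordinates. A peak's summit is its highest point, and its signal value is the authors' own measure of height, on a scale that is not stated. In that list the signal value ran from 188 to 4534, with a median of 309.9. A summit was counted for a gene if it lay between 2 kb before the gene's start and 2 kb after its end, a span called its reach below. Within reach of the 6 genes lay 11 distinct summits. Each replicate had a list of 30000 peaks and background regions, and a summit was matched in a replicate if that list had a summit within 200 bp. Read depth was not analysed here and is unknown. Replicate 1 stood apart from the others, with 819 regions at its list's highest deposited −log10 q value against 5703 and 5553 in replicates 2 and 3. The highest value was taken within each list and may differ between lists.

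HMG-box proteins bend DNA as they bind its minor groove. D carries an HMG box of the Sox type, which recognises a defined sequence, while the boxes of HmgD, HmgZ, Dsp1 and Ssrp bind with little or no sequence preference. Pioneer factors bind sites in closed chromatin and help to open them, as GAGA factor, the product of Trl, does at GA repeats, and as Zelda, the product of zld, does at its sites when the zygotic genome is switched on.

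The sequences at the highest peaks of Trl, Dsp1 and zld are shown as the places within reach of these 3 genes where the signal was greatest, and because they differ in the short words they hold. The tallest peak of HmgD and HmgZ is not printed here, and its window held none of the 7 words searched. Each run is 201 bases long, centred on the summit, from the Release 6 (dm6) plus strand, and lies outside annotated exons. Capitals mark matches on either strand to ACAAT or ACAAAG, a pair of Sox core words, to GAGAG, a word of GAGA factor sites, and to CAGGTA, a word of Zelda sites. A match on the minus strand appears as its reverse complement. The first is the Trl window at chr3L:14759443-14759643, the second the Dsp1 window at chrX:16332935-16333135 and the third the zld window at chrX:19770259-19770459.
Trl: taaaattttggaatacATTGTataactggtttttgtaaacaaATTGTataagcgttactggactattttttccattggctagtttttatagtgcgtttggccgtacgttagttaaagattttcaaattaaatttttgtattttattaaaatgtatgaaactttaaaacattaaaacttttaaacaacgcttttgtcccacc
Dsp1: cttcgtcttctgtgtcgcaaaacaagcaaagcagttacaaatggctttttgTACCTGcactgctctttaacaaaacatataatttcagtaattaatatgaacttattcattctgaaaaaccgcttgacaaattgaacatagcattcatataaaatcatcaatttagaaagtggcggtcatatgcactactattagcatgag
zld: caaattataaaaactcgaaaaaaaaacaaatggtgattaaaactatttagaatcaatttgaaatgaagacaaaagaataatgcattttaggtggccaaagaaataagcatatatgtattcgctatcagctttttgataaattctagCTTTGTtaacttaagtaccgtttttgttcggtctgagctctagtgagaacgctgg

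The Trl window held ACAAT at 2 places, both on the minus strand, with centres 82 and 56 bp from the summit. The Dsp1 window held no Sox core word and had CAGGTA on the minus strand, centred 46.5 bp from the summit. The zld window held ACAAAG on the minus strand, centred 48.5 bp from the summit. None of the windows printed here had its word at the summit itself.

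Of the 6 genes, 5 had at least 1 IDR summit within reach, against 30.4% of protein-coding genes. The counts were 4 at Trl, 3 at HmgD and at HmgZ, which share all of theirs, 2 at Dsp1 and 2 at zld. Ssrp had 0. Among protein-coding genes, 10.4% had 2 or more summits within reach, 4.03% had 3 or more and 1.94% had 4 or more. Per 10 kb of reach, the 5 genes with a summit had from 0.949 summits at zld to 2.34 at Trl, and Ssrp had 0. The summits shared by HmgD and HmgZ were counted for each of them. The 6 chromosome arms as a whole, with all sequence lacking summits, had 0.377. The reach was 11.0 to 21.1 kb at the 5 genes with a summit and 6.64 kb at Ssrp. A longer reach can hold more summits, and no share of genes given here or below was adjusted for length. No test was made of these counts, since the genes were chosen with them known.

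**Figure D1:**
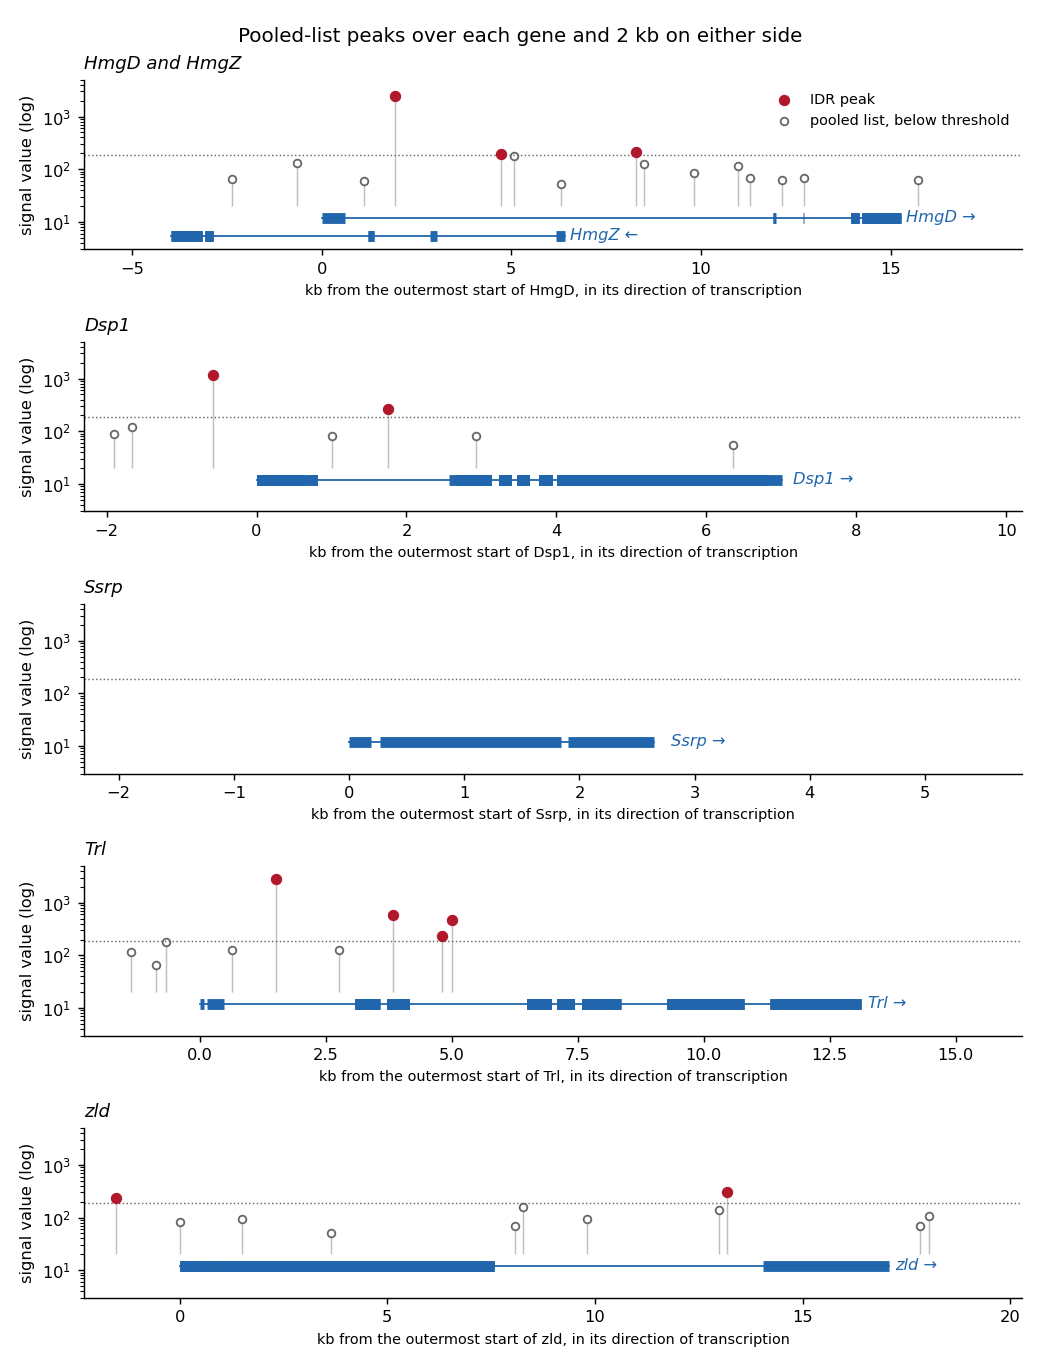
Signal value (vertical, log scale) of every pooled-list peak within reach of each gene, against the distance in kb from the outermost start of the gene named under each panel, with annotated exons as blue bars, IDR peaks as filled points and peaks below the threshold as open points. The dotted line is the lowest signal value of an IDR peak, 188; the tallest peaks stand at 2480.2 between the starts of HmgD and HmgZ and at 2812 in Trl, and the panel of Ssrp is empty.

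The genes of the single-box proteins HmgD and HmgZ came first in this group by class. HmgD is an abundant protein of early embryonic chromatin, and HmgZ is its close relative. The genes lie next to each other on 2R and overlap, HmgD from 21701458 to 21716727 on the plus strand and HmgZ from 21697488 to 21707861 on the minus strand. Their tallest peak, from 21703168 to 21703682, had a signal value of 2480.2 and ranked 20 among all IDR peaks. Its summit lay 564 bp from a start of HmgZ, in the first intron of 2 of the 4 HmgZ transcripts and of 1 of the 4 HmgD transcripts.

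This HmgD and HmgZ peak was matched in every replicate. Its signal value was 749.6 in replicate 1, 818 in replicate 2 and 877 in replicate 3, each on its own list's scale. It ranked 9, 30 and 33 in these lists, so its place was highest in the replicate that stood apart. It was the single one of the 11 summits recovered in all 3 replicates, where recovered means within 200 bp of one of the 5047 highest regions of the replicate's list. Of all IDR summits, 38.5% were recovered in all 3.

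The other summits shared by HmgD and HmgZ were close to the threshold. One, at 21706196, had a signal value of 192, ranked 4903 and lay in the first intron of 1 transcript of each gene, 1665 bp from an HmgZ start. It ranked 6679 in replicate 2 and 3606 in replicate 3 and was not matched in replicate 1. The other, at 21709741, had a signal value of 210.3, ranked 4334 and lay in the first intron of 1 HmgD transcript, 1880 bp before an HmgZ start and within reach of CG30403. It ranked 4689 in replicate 2 and 7899 in replicate 3, again with no match in replicate 1. Each of the 2 thus fell among the 5047 highest regions of a single replicate, and the span from the tallest summit to the last was 6347 bp.

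Dsp1 encodes a protein with a pair of HMG boxes that acts with the Dorsal factor as a corepressor and has been tied to Polycomb recruitment. The gene lies on X from 16333612 to 16340624 on the plus strand, with 7 coding transcripts from 2 start sites. Its taller peak, from 16332816 to 16333197, had a signal value of 1192 and ranked 217. The summit lay 577 bp before a Dsp1 start and 565 bp from a start of CG9921, in the first intron of 1 of the 2 CG9921 transcripts and upstream of the other. A summit in such a place does not show which of the genes it bears on. It ranked 245 in replicate 2 with a signal value of 400.6 and 203 in replicate 3 with 480.1, and the list of replicate 1 had no region anywhere within reach of Dsp1.

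The second Dsp1 peak, with its summit 2334 bp further on at 16335369, had a signal value of 269.9 and ranked 3057. It lay in the first intron of 1 Dsp1 transcript and in the second of 5 more, 815 bp from a Dsp1 start, and was also within reach of CG9921. In replicates 2 and 3 it ranked 3963 and 3368. Both Dsp1 summits were therefore recovered in replicates 2 and 3 and neither was matched in replicate 1.

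Ssrp encodes a subunit of FACT, the complex that moves nucleosomes out of the way of polymerases, and its product carries an HMG box. The gene is short, from 23806361 to 23809004 on the minus strand of 2R, with a reach of 6.64 kb. It had no IDR summit and no summit of the pooled list within reach. The nearest IDR summit lay 35821 bp from the gene. The lists of replicates 2 and 3 had 0 regions within reach of Ssrp, and that of replicate 1 had 1, with a signal value of 22.1 and rank 28404 of 30000. These lists show where regions were called, so a lower level of binding at Ssrp would not appear in them. Its partner in FACT is encoded by dre4, which had 1 IDR summit, 217 bp from its own start, with a signal value of 238.

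Trl encodes GAGA factor and had the tallest peak of the group. Its 10 coding transcripts start at 4 sites and run along the minus strand of 3L, between 14747929 and 14761049. The peak from 14759306 to 14759751 had a signal value of 2812 and ranked 11 among IDR peaks. Its summit lay 1506 bp downstream of the outermost Trl start, in the second intron of 1 transcript and upstream of the other 9. It was also within reach of CG42507 and of Tsen34, which encodes a subunit of the tRNA splicing endonuclease.

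The tallest Trl peak ranked 10 in replicate 2, with a signal value of 1037, and 11 in replicate 3, with 1085. In replicate 1 the list had no region within reach of Trl at all. Of the 20 highest IDR peaks 16 were matched in replicate 1, so Trl is among the 4 that were not, while the HmgD and HmgZ peak is among the 16. What sets replicate 1 apart was not tested.

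Trl had 3 further IDR summits within 3502 bp of the first. The one at 14757227 had a signal value of 584, ranked 939 and lay in a 5′ UTR exon of all 10 Trl transcripts and of both transcripts of CG42507, 109 bp from a Trl start. It was the single one of the 11 summits within 500 bp of a start of the gene itself, whereas 34.8% of IDR summits lay that near to the start of some protein-coding gene. The remaining summits, at 14756041 and 14756242, were 201 bp apart, with signal values of 478 and 232. These summits lay in an intron of Trl and of CG42507, a place that does not show which gene they bear on. In replicate 2 they had separate matches at ranks 1953 and 2692, and in replicate 3 both were matched by the same region, at rank 2265. The summit in the UTR exon ranked 1403 in replicate 2 and 1017 in replicate 3.

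The zld gene encodes Zelda, a zinc finger factor that is supplied maternally. The gene spans 19766465 to 19783548 on X, minus strand, and of the 5 genes with a summit its tallest peak was the lowest. The higher one, at 19770359, had a signal value of 308.6, just under the median of all IDR peaks, and ranked 2540. It lay 12784 bp from the nearest zld start, in the second intron of 1 of the 5 zld transcripts and beyond the end of the other 4, with the nearest start that of CG12702 at 5485 bp. Replicate 1 lacked a match, and its ranks in replicates 2 and 3 were 3627 and 2053.

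The second zld summit lay at 19785091, 1543 bp before the gene's start and upstream of all 5 transcripts, with a signal value of 238 and rank 3651. It was matched in every replicate, at rank 6869 in replicate 1, 3105 in replicate 2 and 4831 in replicate 3. In replicate 1 it fell outside the 5047 highest regions. The zld summits were 14732 bp apart, the widest spacing of the group.

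**Figure D2:**
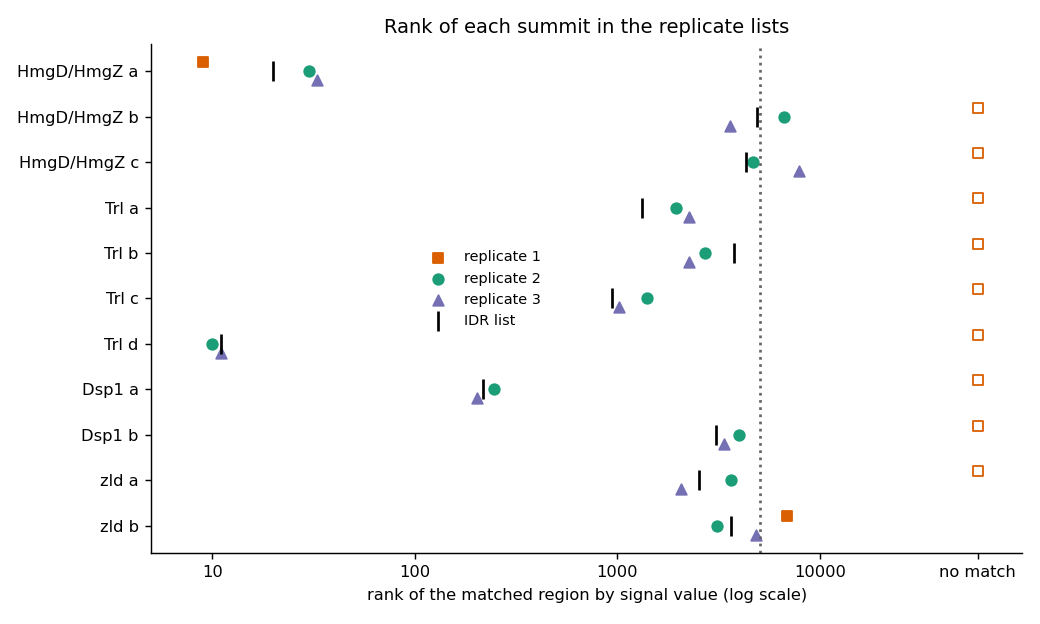
Rank by signal value (horizontal, log scale) of the region matched to each of the 11 summits in replicates 1, 2 and 3, with the rank in the IDR list as a black bar; letters give the order of a gene's summits along the chromosome. Open squares at the right mark summits with no match in replicate 1, and the dotted line is rank 5047; replicate 1 has a filled square for 2 of the 11 summits, at ranks 9 and 6869.

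Seen by replicate, all 11 summits were matched in replicate 2 and all 11 in replicate 3, where 98.3% and 97.9% of all IDR summits were matched. In replicate 1, 2 of the 11 were matched, the tallest of HmgD and HmgZ and the one before zld, against 56.5% of all IDR summits. The 9 without a match in replicate 1 included every summit of Trl and Dsp1. By recovery among the 5047 highest regions, 10 of the 11 were found in replicate 2, 10 in replicate 3, 9 in both of these and 1 in replicate 1, against 85.2%, 83.9% and 74.9% of all IDR summits and, for replicate 1, 2524 of 5047. With recovery in all 3 replicates required, HmgD and HmgZ were the genes that kept a summit, against 11.3% of protein-coding genes. Leaving out replicate 1, all 5 genes kept at least 1 summit recovered in the other replicates, and leaving out replicate 2 or replicate 3 left HmgD and HmgZ with 1 and Dsp1, Trl and zld with 0. The recovery of D peaks at Trl, Dsp1 and zld thus rests on replicates 2 and 3.

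The genes differed widely in the height of their tallest peak. Of the 4239 protein-coding genes with an IDR summit within reach, 13 had a higher tallest peak than Trl, 33 a higher one than HmgD and HmgZ, and 338 a higher one than Dsp1. At zld the tallest peak was lower than that of 2737 of these genes. The median over the 4239 genes was 393, which lies above zld and below the other members with a summit. These genes differ in the length of their reach, and the comparison was not adjusted for it. A peak within reach of several genes was counted for each of them, as the tallest Trl peak was for CG42507. Of the 11 summits, 5 were above the median signal value of all IDR peaks, and these were 3 of Trl and 1 each of Dsp1 and the HmgD and HmgZ pair. The deposited −log10 value in the IDR list stood at its highest level for 9 of the 11, against 82.0% of all IDR peaks, and the exceptions were the lower summits of HmgD and HmgZ, at 2.88 and 3.09.

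**Figure D3:**
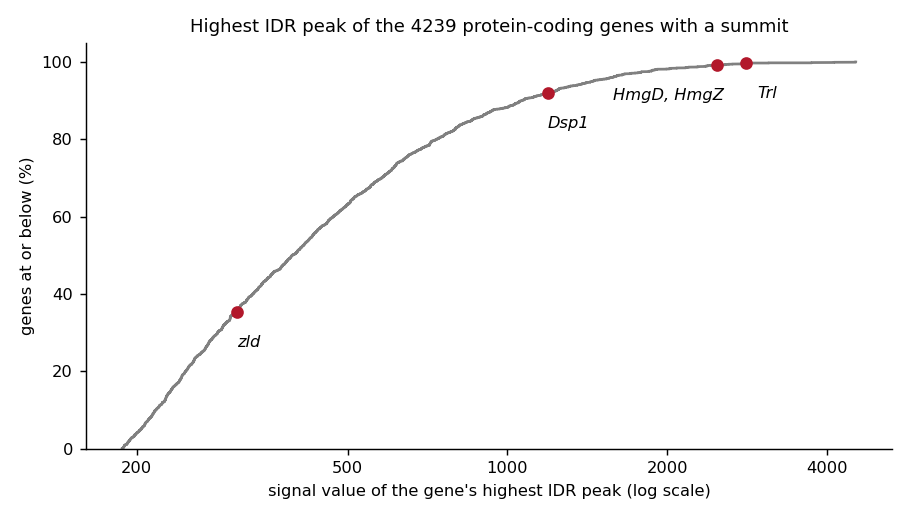
Cumulative share (vertical, per cent) of the 4239 protein-coding genes with an IDR summit against the signal value of each gene's highest IDR peak (horizontal, log scale), with the members marked in red. Trl, at 2812, and HmgD with HmgZ, at 2480.2, lie at the upper end, Dsp1 at 1192 below them, and zld at 308.6 in the lower part of the curve.

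The threshold on the list fell close to several peaks of these genes. The lowest IDR summit within reach of a member was that of HmgD and HmgZ at 192, and the highest pooled-list summits that missed the list had signal values of 183 at Trl, 177 at HmgD and HmgZ, 155 at zld and 119 at Dsp1. The pooled list had 11 such summits below the threshold at HmgD, 9 at zld and 5 each at HmgZ, Dsp1 and Trl. Ssrp had none. The one of 183 at Trl, with its summit at 14761716, upstream of the outermost start, was also among the 5047 highest regions of replicate 3, at rank 3519.

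By position, 8 of the 11 summits lay in an intron of at least 1 transcript of a member, 1 in an exon, and the rest upstream, before Dsp1 and before zld. A summit counted as intronic can lie upstream of most transcripts, as the tallest Trl summit did for 9 of 10. For 8 of the 11, the nearest start of any protein-coding gene was that of a member, and the exceptions were the taller Dsp1 summit, the more distant zld summit and the last summit at HmgD and HmgZ. The matching shares of all IDR summits were not computed, so neither count is read as a trait of these genes. The 201 bp at the 11 summits had a median GC content of 36.3%, against 34.3% at all IDR summits. The lowest was 26.4% at the tallest Trl peak and the highest 53.7% at the lowest HmgD and HmgZ peak.

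Sox core words were searched at each of these summits. The word ACAAT was found within 100 bp of 4 of the 11 summits, against 52.1% of IDR summits and 49.0% of 22054 pooled-list summits that were below the threshold and more than 1 kb from any IDR summit. These were the tallest Trl summit and the one at 14756041, each with 2 matches, the second Dsp1 summit with 1 and the lowest HmgD and HmgZ summit with 1. The word ACAAAG was found at 2 summits, the one of Trl at 14756242 and the more distant one of zld. Its share was 16.3% at IDR summits and 17.2% at the same summits below the threshold. The longer word ACAATGG, which contains ACAAT, was found at 0 of the 11. Its share was 3.37% at IDR summits and 4.44% below the threshold. With 11 windows the shares are coarse, and a match is a description of letters and not of a site.

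The words of GAGA factor and Zelda sites were each found at 1 summit or none. GAGAG was found at 1 of the 11 summits, the lowest of HmgD and HmgZ, against 23.0% of IDR summits, and the longer GAGAGAG at 0 against 4.44%. At the 22054 summits below the threshold the shares were 23.2% for GAGAG and 3.39% for GAGAGAG. None of the 4 Trl summits held GAGAG within 100 bp. CAGGTA was found at 1, the taller Dsp1 summit, against 3.88%, and CAGGTAG, which contains it, at 0 against 0.892%. Below the threshold the shares were 4.19% for CAGGTA and 1.15% for CAGGTAG. Neither zld summit held either word. The tallest peak of HmgD and HmgZ, which ranked 9 in replicate 1, held none of the 7 words searched.

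Related genes give the setting for these members. They were taken from 3 lists drawn up with earlier results of these data known. Among other HMG-box genes, 3 of 7 had an IDR summit within reach. They were cic, which encodes the repressor Capicua, with 7 summits and a highest signal value of 716, tHMG2 with 1 at 285 and pan, which encodes the Wnt effector TCF, with 1 at 213. tHMG1, TFAM, Bap111 and polybromo had 0, among them a mitochondrial packaging factor and subunits of Brahma complexes.

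In the list drawn up for other pioneer or GA-binding factor genes, 4 of 5 had a summit. That list also took in lolal. The gene of Grainy head, grh, had 4 with a highest value of 1072, the gene of the GA-binding factor Pipsqueak, psq, had 4 with 596, the gene of the BTB protein Batman, lolal, had 1 with 352 and opa, which encodes Odd-paired, had 2 with 303. Clamp had 0. The tallest grh peak was matched in all 3 replicates, at ranks 309, 228 and 277, whereas the tallest peaks of psq, lolal and opa had no match in replicate 1, as at Trl.

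Among partners in chromatin work, 4 of 8 had a summit. They were dre4, mod(mdg4) with 3 and a highest value of 798, pzg with 1 at 385 and Caf1-55 with 1 at 2781. For 3 of these 4 genes the tallest peak was nearest to a start annotated under another gene name, which at mod(mdg4) was pre-mod(mdg4)-E. The Caf1-55 peak lay 3958 bp from a Caf1-55 start and 126 bp from a start of Art3. The mod(mdg4) peak lay 11954 bp from its own nearest start and 41 bp from that of pre-mod(mdg4)-E, and the pzg peak 147 bp from its own and 10 bp from that of CG12974. E(bx), Iswi and Nurf-38 had 0, as had BigH1, the gene of the embryonic linker histone. Over the 3 lists, 11 of 20 genes had a summit, against 30.4% of protein-coding genes, and 5 had one recovered in all 3 replicates, against 11.3%. The lists were drawn up with earlier results known and their genes differ in length, so nothing is read from these shares.

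**Figure D4:**
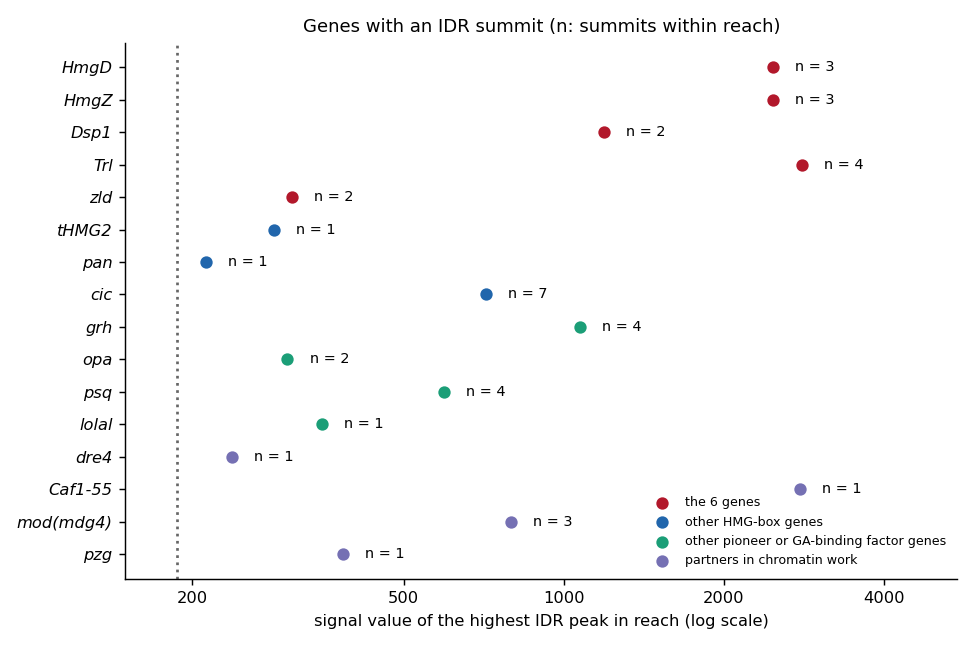
Signal value (horizontal, log scale) of the highest IDR peak within reach of each gene that had one, for 5 of the 6 members in red and for genes of the 3 related lists in other colours, with n the number of summits within reach. The dotted line is the lowest IDR signal value, 188; Trl at 2812, Caf1-55 at 2781 and HmgD with HmgZ at 2480.2 are the highest, and pan at 213 is the lowest.

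The IDR peaks most like each member's tallest peak were found by their ranks in the 3 replicate lists, as the smallest value of the largest rank ratio over the 3, with an unmatched peak placed after the last rank. For the HmgD and HmgZ peak they were the peaks nearest to CG4004 and Tcs5, whose ranks differed from it by at most 1.33-fold and 1.36-fold. For Trl they were those nearest to Chro, the gene of a chromodomain protein, and CG13323, at most 1.45-fold and 1.57-fold. For Dsp1 they were those nearest to Tre1, the gene of a receptor of migrating germ cells, and Alg3, at most 1.09-fold and 1.11-fold, and for zld those nearest to Pde9 and dnr1, at most 1.02-fold and 1.05-fold. The likeness rests on 3 values per peak. The peaks like those of Trl, Dsp1 and zld all lacked a match in replicate 1. The rule itself favours this, since all unmatched peaks take the same rank. For Trl, Dsp1 and zld the likeness thus rests on the ranks in replicates 2 and 3.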

How the data were processed

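D-GFP ChIP-seq peak lists of 3 replicates, of the replicates pooled and after IDR were used, all on dm6. The authors made 1 list of peaks plus background per replicate and 1 from the 3 combined, against a control alignment, and derived the IDR list, as the read-me texts deposited with the lists record. The aligner, the peak caller and the threshold on IDR were not stated in the sources used here. Per the labels, chromatin was sonicated, with a size range of 200 to 800. The deposited signal value (column 7) is the authors' own measure with no stated scale, used to rank peaks within a list. The −log10 values (column 9), deposited by the authors, were used to count peaks at the highest value of each list. They are also given for the lower HmgD and HmgZ summits. The 5047 IDR peaks were the 5047 highest of the pooled list.

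Genes, start sites of protein-coding transcripts and sequence came from Ensembl release 115 and RefSeq Release 6, the build of the lists, and 0 regions ran past the end of an arm. Matching used 200 bp. Motifs were searched on both strands within 100 bp of a summit. All 6 members were named, with related genes that had a summit and, per member, the 2 peaks most alike in replicate ranks. Members, lists and alternatives were chosen with earlier results of these data known. The dm3 lists were not used here. No p-value was computed. Summit counting and matching were tested on simulated positions. The software was Python 3.11.15, numpy 2.4.6, pandas 2.3.3 and, for figures, matplotlib 3.10.9.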

Additional observations from a re-analysis of the deposited data

How the results depend on the processing

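With a single group no paired analysis was made. The number of genes with a summit was 5 with a reach of 0, 1 or 5 kb on each side and with peak intervals in place of summits, and 4 by nearest start site. Keeping the upper 50% of IDR peaks left 5 summits, at 4 genes, with 5 matched in replicates 2 and 3 each and 1 in replicate 1. Matches in replicate 1 were also 1 with the gene body alone and with 1 kb on each side. Summits near a member's start numbered 4 within 1000 bp. Leaving out each replicate in turn meant keeping the summits recovered in both replicates left, with the IDR list as deposited. This gave 1 to 9 summits at 2 to 5 genes, with 0 to 1 near a member's start. Leaving out replicate 2 or 3 gave the lowest values. By nearest start site HmgD had 0 summits. Depth is unknown, so weak binding cannot be told from none.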

Other observations

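Within reach of the 6 genes, replicate 2 had 4 and replicate 3 had 2 regions among their 5047 highest that lay more than 200 bp from any IDR summit, and replicate 1 had 0. In both replicates the highest of these had its summit inside the interval of the tallest IDR peak of HmgD and HmgZ, so it was not a separate place. It lay 206 bp from that peak's summit at rank 425 in replicate 2 and 221 bp from it at rank 531 in replicate 3. The others in replicate 2 were at ranks 3884 and 3988 at HmgD and HmgZ and at rank 4316 in Trl. The other in replicate 3, at rank 3519, was upstream of Trl.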
